A study of Mus musculus with 12 samples.

Results

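Peroxisome biogenesis and metabolism was described by 38 genes, 12 for the assembly of the organelle and 26 for its enzymes and membrane transporters, in liver RNA of 12 BALB/c mice. The members were listed by symbol, and each was read from the probe set with the highest mean over the 12 arrays among those annotated with that symbol alone. All 38 had such a probe set and passed the filter on dim probe sets, out of 12760 genes tested. The 12 oligonucleotide arrays hold 4 groups of 3 mice on the BALB/c strain, named here as the labels do. WT mice are wild type controls, littermates with both copies of Tgfb1 per the series design. TGFB KO mice lack transforming growth factor beta 1 (Tgfb1), the cytokine that restrains lymphocyte activation. IFNko TGFB1 KO mice are labelled as lacking both Tgfb1 and interferon gamma (Ifng). INFko TGFB+ mice are labelled as lacking Ifng and keeping Tgfb1, in 1 or 2 copies that the labels do not tell apart; the series design text describes only the other 3 groups. The series studies acute autoimmune hepatitis in mice without Tgfb1. No age is given in the labels, and all 4 groups are whole liver, so every value mixes hepatocytes with the other cells of the organ.

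Peroxisomes are single-membrane organelles that break down very long, branched and dicarboxylic fatty acids, oxidise hydroxyacids, D-amino acids and glyoxylate with the release of hydrogen peroxide, and begin the synthesis of ether lipids. Hepatocytes are rich in them. Their matrix proteins are made in the cytosol and carried in by the receptors PEX5 and PEX7 through a docking and ubiquitin-ligase complex, while PEX3, PEX16 and PEX19 place the membrane proteins. In rodent liver many of the enzymes are under the fatty acid sensing nuclear receptor PPAR-alpha, which binds a direct repeat of the hexamer AGGTCA spaced by 1 base.

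Many of the 38 members were lower where Tgfb1 was missing. In TGFB KO 23 of the 38 members were lower than in WT, where 11.9% of all genes tested were, and 2 were higher, where 12.2% were (limma, adjusted p under 0.05). With any 1 of the 6 arrays left out the count of falls was 13 to 17, and with each array centred on its median 14. In IFNko TGFB1 KO 26 members were lower than in INFko TGFB+, against 13.1% of all genes, and 0 were higher, against 12.7%. There, leaving out 1 array gave 19 to 29 falls. The deepest falls in both were those of Hao2, a peroxisomal hydroxyacid oxidase gene, by 15.4-fold and 12.5-fold, and of Hacl1, the lyase gene of alpha-oxidation, by 5.89-fold and 8.75-fold. Assembly genes had smaller changes at the median than enzyme and transport genes, with log2 fold changes of -0.57 and -0.99 in TGFB KO and -0.63 and -1.18 in IFNko TGFB1 KO. Of the 3 genes of ether lipid synthesis 0 fell, which so few genes cannot tell apart from the shares of all genes. Of these 3, Far1 rose in TGFB KO. Pex11a, which drives peroxisome division, rose in TGFB KO as well, and was lower in IFNko TGFB1 KO than in TGFB KO.

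Sequence upstream of 5 members is shown before the values, because these genes mark the range of what was seen: Hao2 and Hacl1 for the deepest falls, the thiolase paralogs Acaa1b and Acaa1a for a pair of which only the first passed the test, and Pex11a for a rise. Each run is the 250 bases before the annotated start, 5′ to 3′, from RefSeq on GRCm38.p6, and 33 of the 38 members had at least 1 such window. Capitals mark the hexamer AGGTCA, the GC box GGGCGG and the sequence CCAAT, on either strand. The windows are chr3:98893231-98893480, minus strand for Hao2, chr14:31640966-31641215, minus strand for Hacl1, chr9:119157094-119157343, minus strand for Acaa1b, chr9:119341044-119341293, plus strand for Acaa1a and chr7:79743132-79743381, minus strand for Pex11a.
Hao2: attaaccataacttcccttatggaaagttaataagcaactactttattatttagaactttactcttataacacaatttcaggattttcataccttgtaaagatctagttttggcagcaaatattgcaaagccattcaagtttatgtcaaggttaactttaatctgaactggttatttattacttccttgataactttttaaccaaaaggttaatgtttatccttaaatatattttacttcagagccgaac
Hacl1: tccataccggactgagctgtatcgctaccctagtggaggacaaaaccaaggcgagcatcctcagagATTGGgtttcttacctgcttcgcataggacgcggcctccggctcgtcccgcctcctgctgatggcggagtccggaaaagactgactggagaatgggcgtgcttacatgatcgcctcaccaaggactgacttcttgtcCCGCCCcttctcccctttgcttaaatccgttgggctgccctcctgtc
Acaa1b: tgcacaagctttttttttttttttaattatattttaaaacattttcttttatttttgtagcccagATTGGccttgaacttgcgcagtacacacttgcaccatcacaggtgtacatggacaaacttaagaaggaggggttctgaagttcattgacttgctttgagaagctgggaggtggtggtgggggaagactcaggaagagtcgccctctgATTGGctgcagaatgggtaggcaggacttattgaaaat
Acaa1a: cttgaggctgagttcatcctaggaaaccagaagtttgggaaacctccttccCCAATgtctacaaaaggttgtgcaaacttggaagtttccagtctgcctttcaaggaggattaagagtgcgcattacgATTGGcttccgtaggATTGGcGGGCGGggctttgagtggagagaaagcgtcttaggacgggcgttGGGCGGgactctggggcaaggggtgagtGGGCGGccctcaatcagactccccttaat
Pex11a: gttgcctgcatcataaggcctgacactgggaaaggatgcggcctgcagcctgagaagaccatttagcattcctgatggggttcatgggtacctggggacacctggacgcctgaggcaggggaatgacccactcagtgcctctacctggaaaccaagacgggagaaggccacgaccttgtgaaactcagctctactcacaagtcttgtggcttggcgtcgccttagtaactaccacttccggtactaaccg

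The Hao2 and Pex11a windows hold none of these motifs. The Acaa1a window holds 3 matches to GGGCGG and 3 to CCAAT, and the Acaa1b window 0 and 2, in that order. The hexamer AGGTCA, searched on both strands, was present for 4 of 23 enzyme and transport genes with a window (Acot4, Cat, Dao and Scp2) and for 0 of 10 assembly genes, against 15.8% of all 27025 genes with a window. Its direct repeat AGGTCANAGGTCA, which contains the hexamer 2 times, was found for 0 of the 33 members and for 0.0407% of all genes. Sequence further from the start was not searched. GGGCGG was present for 6 of the 10 assembly genes and 15 of the 23 enzyme and transport genes, against 35.4% of all genes. CCAAT was present for 3 and 13, against 37.5%.

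The values below are log2 levels, the base 2 logarithm of the deposited signal plus 16 after quantile normalization, listed for replicates 1, 2 and 3. Fold changes are differences of these levels ± the standard error from limma, with 3 mice a group. The fit pools the spread over all 4 groups, so a gene has the same error in both TGFB comparisons. A wide spread in 1 group therefore widens the error of a comparison that leaves this group out. A gene is said to rise or fall only at a Benjamini-Hochberg adjusted p under 0.05 over all 12760 genes, from limma. The array IFNko TGFB1 KO 1 stood apart in its raw signal, with a median of 61.3 against 33.8 to 42.6 in the other 11, and rank correlations of 0.754 to 0.808 with them against 0.816 to 0.911 among themselves. IFNko TGFB1 KO 2 was the lowest of its group in 30 of the 38 members, and it had the highest mean T cell marker level of the 12 arrays (8.55, against 7.95 and 7.82 in the other 2 of its group) and the lowest mean hepatocyte marker level (13.62, against 13.93 and 13.99). Tgfb1 itself had log2 levels of 8.69, 8.89 and 7.07 in WT, 6.47, 6.71 and 6.002 in TGFB KO, 7.92, 7.53 and 7.67 in INFko TGFB+ and 5.02, 6.05 and 5.93 in IFNko TGFB1 KO. Its groups with and without the gene did not overlap, and it fell in both comparisons (-1.82 ± 0.44, adjusted p = 0.0105 and -2.04 ± 0.44, adjusted p = 0.00557). The Ifng probe set gave 4.58, 4.14 and 4.63 in INFko TGFB+ but 6.19, 6.09 and 5.95 in IFNko TGFB1 KO, where it was higher (1.63 ± 0.30, adjusted p = 0.00243). It gave 5.15, 5.37 and 4.53 in WT and 6.69, 6.80 and 7.75 in TGFB KO. IFNko TGFB1 KO differed from TGFB KO by -1.01 ± 0.30 (adjusted p = 0.0784). INFko TGFB+ differed from WT by -0.57 ± 0.30 (adjusted p = 0.91), and neither difference passed. No source used here gives which part of Ifng was disrupted or where the probe set lies, and the group keeps the name on its label. As read from Xist and Eif2s3y, each group held 1 female and 2 male mice, the females being WT 2, TGFB KO 1, INFko TGFB+ 1 and IFNko TGFB1 KO 2. The female array was the lowest of its group in 19, 18, 14 and 30 members, in that order, and INFko TGFB+ 3, a male, also in 14. With sex as a term 24 members fell in TGFB KO and 26 in IFNko TGFB1 KO.

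**Figure D1:**
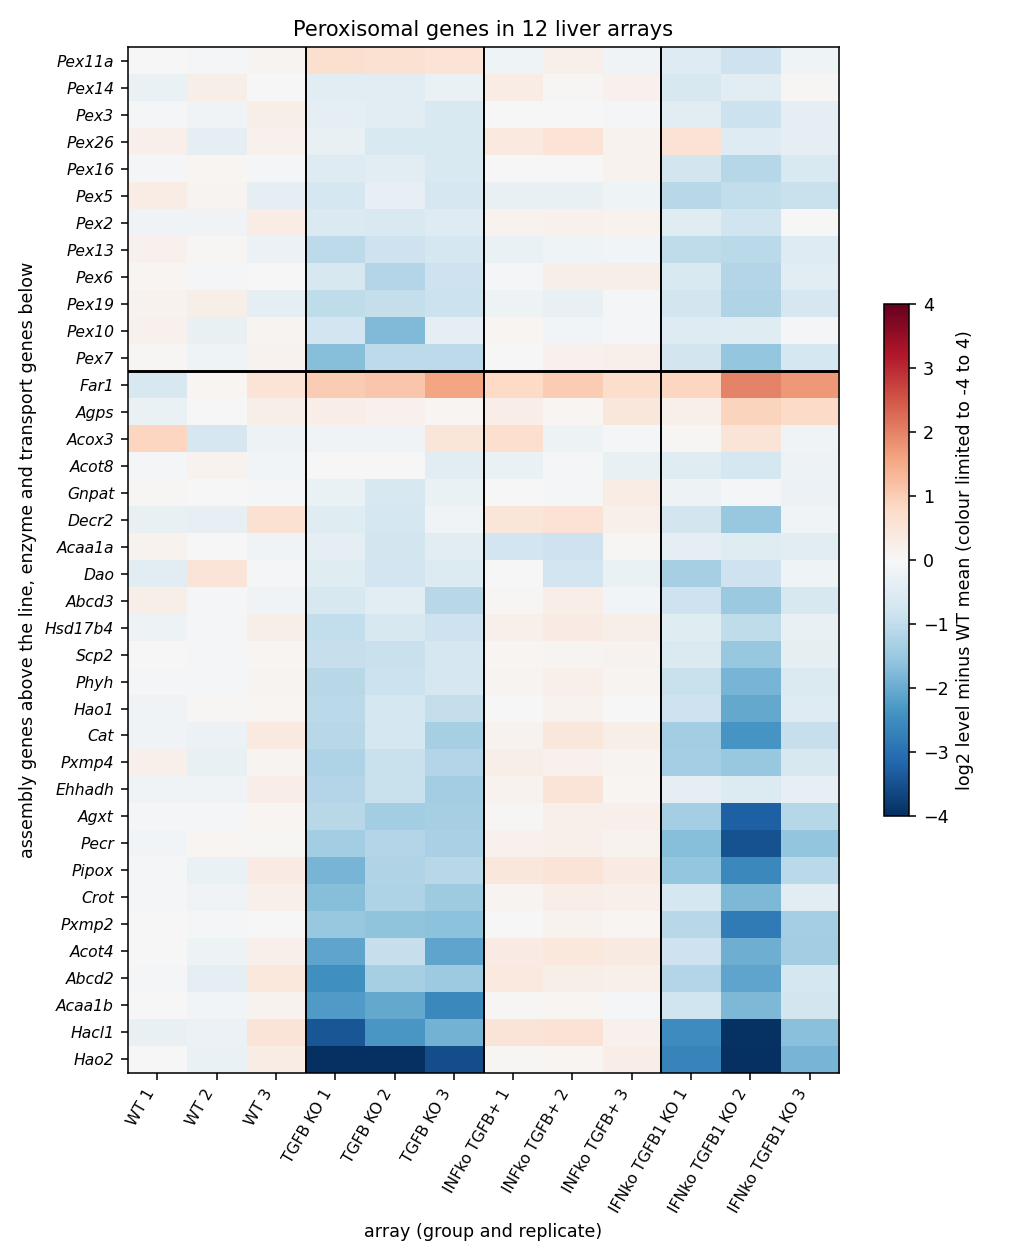
Log2 level minus the WT mean of each gene (colour, blue lower and red higher) for the 38 members (rows, assembly genes above the line) on the 12 arrays (columns, 4 groups of 3). Blue fills most of the TGFB KO and IFNko TGFB1 KO columns, most deeply in IFNko TGFB1 KO 2, the lowest array of its group for 30 of the 38 members.

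The group of oxidases, catalase and a glyoxylate enzyme holds the member with the deepest fall. Of its 6 genes, 4 fell in TGFB KO and 5 in IFNko TGFB1 KO, with medians of -1.17 and -1.95. Hao2, which oxidises medium and long chain 2-hydroxyacids, had log2 levels of 12.002, 11.74 and 12.30 in WT, 7.82, 7.93 and 8.46 in TGFB KO, 12.06, 12.09 and 12.29 in INFko TGFB+ and 9.33, 6.02 and 10.16 in IFNko TGFB1 KO. No WT or INFko TGFB+ array lay below 11.74 and no array lacking Tgfb1 above 10.16. The spread within IFNko TGFB1 KO, from 6.02 to 10.16, was the widest of any group for this gene. Its SD was 2.19 there, against 0.28 in WT and 0.34 in TGFB KO, and the pooled error of both changes includes it. Hao2 changed by -3.95 ± 0.78 (adjusted p = 0.00363) in TGFB KO and by -3.65 ± 0.78 (adjusted p = 0.00546) in IFNko TGFB1 KO. Cat, which encodes catalase and destroys the hydrogen peroxide made by the oxidases, had levels of 12.76, 12.65 and 13.28 in WT, 11.78, 12.18 and 11.56 in TGFB KO, 13.05, 13.35 and 13.12 in INFko TGFB+ and 11.51, 10.53 and 11.98 in IFNko TGFB1 KO. The 6 arrays lacking Tgfb1 were again below the other 6. Cat changed by -1.06 ± 0.33 (adjusted p = 0.0364) and -1.84 ± 0.33 (adjusted p = 0.00222), and in TGFB KO it missed the threshold without WT 1, 2 or 3 or TGFB KO 1 or 3 (adjusted p up to 0.116).

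Agxt encodes the aminotransferase that turns glyoxylate into glycine and is peroxisomal in mouse liver. Its levels were 12.55, 12.57 and 12.69 in WT, 11.50, 11.23 and 11.26 in TGFB KO, 12.64, 12.82 and 12.82 in INFko TGFB+ and 11.24, 9.35 and 11.46 in IFNko TGFB1 KO. It was lower in both comparisons, at -1.27 ± 0.42 (adjusted p = 0.0476) and -2.07 ± 0.42 (adjusted p = 0.0043), with IFNko TGFB1 KO 2 far below the other arrays. The first of these missed the threshold with any 1 of its 6 arrays left out (adjusted p from 0.088 to 0.115). It was kept in a fit of only the WT and TGFB KO arrays. The SD of Agxt was 0.08 in WT and 0.15 in TGFB KO, against 1.16 in IFNko TGFB1 KO. Pipox, which oxidises pipecolic acid and sarcosine, had levels of 10.74, 10.51 and 11.12 in WT, 8.93, 9.58 and 9.70 in TGFB KO, 11.25, 11.29 and 11.11 in INFko TGFB+ and 9.24, 8.22 and 9.72 in IFNko TGFB1 KO. It changed by -1.39 ± 0.34 (adjusted p = 0.0122) and -2.16 ± 0.34 (adjusted p = 0.00113), without overlap between the groups compared. Without TGFB KO 1 the first missed the threshold (adjusted p = 0.0544). Hao1, the liver glycolate oxidase gene, had levels of 11.60, 11.80 and 11.83 in WT, 10.65, 11.05 and 10.78 in TGFB KO, 11.75, 11.88 and 11.76 in INFko TGFB+ and 10.90, 9.69 and 11.22 in IFNko TGFB1 KO. Its 3 TGFB KO arrays were below the WT arrays, but the difference of -0.91 ± 0.32 did not pass (adjusted p = 0.0559). It fell in IFNko TGFB1 KO (-1.19 ± 0.32, adjusted p = 0.0163, or 0.0561 without INFko TGFB+ 2). Dao, a D-amino acid oxidase gene, was near the filter in every array, with levels from 4.35 to 6.19, and passed in neither comparison (-0.59 ± 0.32 and -0.41 ± 0.32).

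Both genes of alpha-oxidation, the pathway that shortens phytanic acid by 1 carbon, fell in both comparisons. Hacl1, whose lyase cleaves 2-hydroxyacyl-CoA, had levels of 11.71, 11.78 and 12.53 in WT, 8.57, 9.67 and 10.10 in TGFB KO, 12.52, 12.57 and 12.19 in INFko TGFB+ and 9.50, 8.06 and 10.34 in IFNko TGFB1 KO. The highest of the 6 arrays lacking Tgfb1, at 10.34, lay more than 1 log2 unit under the lowest of the others, at 11.71. Hacl1 changed by -2.56 ± 0.52 (adjusted p = 0.00454) and by -3.13 ± 0.52 (adjusted p = 0.00151). Phyh, the phytanoyl-CoA hydroxylase gene of the step before, had levels of 12.82, 12.79 and 12.97 in WT, 11.74, 12.01 and 12.20 in TGFB KO, 12.97, 13.07 and 12.96 in INFko TGFB+ and 11.97, 10.99 and 12.28 in IFNko TGFB1 KO. Its changes were smaller, at -0.88 ± 0.28 (adjusted p = 0.0388) and -1.25 ± 0.28 (adjusted p = 0.00652). In TGFB KO the call was lost with any 1 of the 6 arrays left out (adjusted p from 0.0528 to 0.128). It was kept in a fit of only the WT and TGFB KO arrays.

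Beta-oxidation was represented by 8 genes, of which 5 fell in TGFB KO and 6 in IFNko TGFB1 KO, with medians of -0.82 and -0.89. Acaa1b, one of 2 mouse genes for the 3-ketoacyl-CoA thiolase that ends each cycle, had levels of 13.54, 13.44 and 13.69 in WT, 11.30, 11.52 and 10.99 in TGFB KO, 13.60, 13.63 and 13.46 in INFko TGFB+ and 12.76, 11.74 and 12.81 in IFNko TGFB1 KO. TGFB KO was the lowest group and did not overlap IFNko TGFB1 KO, which itself lay under the WT and INFko TGFB+ arrays. It changed by -2.29 ± 0.26 (adjusted p = 0.000111) and -1.13 ± 0.26 (adjusted p = 0.00885). Its paralog Acaa1a did not pass in either comparison, at -0.52 ± 0.23 (adjusted p = 0.122) and 0.09 ± 0.23 (adjusted p = 0.816). Both Acaa1a probe sets tested carry the suffix of probes that can bind related transcripts, so its reading is uncertain, and the second of them gave -0.76 and -1.36, neither past the threshold.

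Ehhadh, the bifunctional enzyme gene of the straight-chain pathway, had levels of 10.44, 10.44 and 10.84 in WT, 9.41, 9.67 and 9.18 in TGFB KO, 10.70, 11.08 and 10.65 in INFko TGFB+ and 10.23, 10.03 and 10.23 in IFNko TGFB1 KO. As for Acaa1b, TGFB KO was lowest: the changes were -1.15 ± 0.19 (adjusted p = 0.00141) and -0.65 ± 0.19 (adjusted p = 0.029). The second missed the threshold without INFko TGFB+ 1 or 2 or IFNko TGFB1 KO 2 (adjusted p up to 0.128). Hsd17b4 encodes the D-bifunctional protein that handles branched substrates and bile acid precursors. Its levels were 11.07, 11.20 and 11.50 in WT, 10.28, 10.62 and 10.43 in TGFB KO, 11.45, 11.59 and 11.48 in INFko TGFB+ and 10.77, 10.26 and 10.95 in IFNko TGFB1 KO. Both groups without Tgfb1 were lower than their controls, at -0.81 ± 0.20 (adjusted p = 0.0129) and -0.85 ± 0.20 (adjusted p = 0.00985). Without TGFB KO 1 the first had an adjusted p of 0.0523. A second Hsd17b4 probe set gave -0.51 and -0.56, neither past the threshold. With the mean of the probe sets the call in TGFB KO was lost. Scp2, the sterol carrier protein and thiolase gene, had levels of 13.92, 13.85 and 14.02 in WT, 12.99, 13.05 and 13.26 in TGFB KO, 14.01, 14.03 and 14.07 in INFko TGFB+ and 13.35, 12.42 and 13.56 in IFNko TGFB1 KO. It changed by -0.83 ± 0.25 (adjusted p = 0.0329) and -0.93 ± 0.25 (adjusted p = 0.0178). The first missed the threshold with any 1 of its 6 arrays left out (adjusted p from 0.0514 to 0.098), and the second without INFko TGFB+ 1, 2 or 3 (up to 0.0542). In fits of only the arrays compared the first was kept and the second lost.

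Pecr, which reduces trans-2-enoyl-CoA, had levels of 11.28, 11.46 and 11.43 in WT, 10.002, 10.22 and 10.09 in TGFB KO, 11.57, 11.61 and 11.52 in INFko TGFB+ and 9.70, 7.90 and 9.80 in IFNko TGFB1 KO. IFNko TGFB1 KO was lower than TGFB KO on every array, though that difference did not pass (-0.97 ± 0.39, adjusted p = 0.183). Against their own controls the groups changed by -1.29 ± 0.39 (adjusted p = 0.0332) and -2.44 ± 0.39 (adjusted p = 0.00119). The first was lost with any 1 array left out (adjusted p from 0.0649 to 0.0932). It was kept in a fit of only the WT and TGFB KO arrays. Decr2, a reductase gene for unsaturated chains, had levels of 9.15, 9.13 and 10.07 in WT, 8.95, 8.73 and 9.32 in TGFB KO, 9.92, 10.03 and 9.64 in INFko TGFB+ and 8.71, 7.93 and 9.30 in IFNko TGFB1 KO. WT and TGFB KO overlapped (-0.45 ± 0.35, adjusted p = 0.397), while it fell in IFNko TGFB1 KO (-1.22 ± 0.35, adjusted p = 0.0232), a call lost without INFko TGFB+ 1 or 2 or IFNko TGFB1 KO 2 (adjusted p up to 0.0852). Acox3, an oxidase gene of branched chains, was dim, between 4.92 and 6.47 on the 12 arrays, and differed by 0.07 ± 0.38 and 0.00 ± 0.38, with overlap in both comparisons.

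Genes that hand shortened chains on to other compartments fell in 2 of 3 cases in each comparison. Crot, the carnitine octanoyltransferase gene, had levels of 13.003, 12.92 and 13.29 in WT, 11.37, 11.84 and 11.64 in TGFB KO, 13.19, 13.32 and 13.28 in INFko TGFB+ and 12.37, 11.28 and 12.65 in IFNko TGFB1 KO. It changed by -1.46 ± 0.30 (adjusted p = 0.00459) and -1.16 ± 0.30 (adjusted p = 0.014), with all 6 arrays lacking Tgfb1 below the other 6. Acot4, a peroxisomal thioesterase of dicarboxylic acyl-CoA, had levels of 7.99, 7.77 and 8.17 in WT, 5.87, 7.04 and 5.86 in TGFB KO, 8.31, 8.41 and 8.33 in INFko TGFB+ and 7.14, 6.03 and 6.59 in IFNko TGFB1 KO. The group means were 3.30-fold and 3.40-fold lower (-1.72 ± 0.33, adjusted p = 0.00331 and -1.76 ± 0.33, adjusted p = 0.00281), and a second Acot4 probe set gave -1.28 and -1.43, both past the threshold. Acot8, a broad thioesterase, overlapped in both comparisons and differed by -0.14 ± 0.18 and -0.26 ± 0.18.

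All 4 membrane genes fell in both comparisons, with medians of -1.34 and -1.47, and for each the 6 arrays lacking Tgfb1 lay below the other 6. Abcd2, an importer of very long chain and polyunsaturated acyl-CoA, had levels of 8.93, 8.60 and 9.39 in WT, 6.52, 7.64 and 7.53 in TGFB KO, 9.35, 9.19 and 9.17 in INFko TGFB+ and 7.79, 6.86 and 8.27 in IFNko TGFB1 KO. It changed by -1.74 ± 0.37 (adjusted p = 0.006) and -1.60 ± 0.37 (adjusted p = 0.009), and 2 further probe sets of the gene gave -1.23 and -1.74 in TGFB KO and -1.29 and -1.74 in IFNko TGFB1 KO. Abcd3, the related importer also called PMP70, had levels of 12.24, 11.94 and 11.88 in WT, 11.37, 11.56 and 10.91 in TGFB KO, 12.07, 12.28 and 11.91 in INFko TGFB+ and 11.18, 10.54 and 11.37 in IFNko TGFB1 KO. Its change in TGFB KO was the smallest of the 4, at -0.74 ± 0.24 (adjusted p = 0.0465), and was lost without WT 1, 2 or 3 or TGFB KO 1 or 3 (adjusted p up to 0.16). In IFNko TGFB1 KO it was -1.06 ± 0.24 (adjusted p = 0.00832). Pxmp2, a channel of the peroxisomal membrane, had levels of 11.66, 11.60 and 11.67 in WT, 10.14, 10.05 and 9.99 in TGFB KO, 11.66, 11.80 and 11.74 in INFko TGFB+ and 10.54, 8.81 and 10.30 in IFNko TGFB1 KO. The 3 TGFB KO arrays lay close together, and the changes were -1.58 ± 0.35 (adjusted p = 0.00652) and -1.85 ± 0.35 (adjusted p = 0.00273). Pxmp4, a membrane protein gene of the organelle, had levels of 10.13, 9.63 and 10.07 in WT, 8.71, 9.05 and 8.79 in TGFB KO, 10.17, 10.12 and 10.05 in INFko TGFB+ and 8.57, 8.43 and 9.29 in IFNko TGFB1 KO. It changed by -1.09 ± 0.23 (adjusted p = 0.00558) and -1.35 ± 0.23 (adjusted p = 0.00179).

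**Figure D2:**
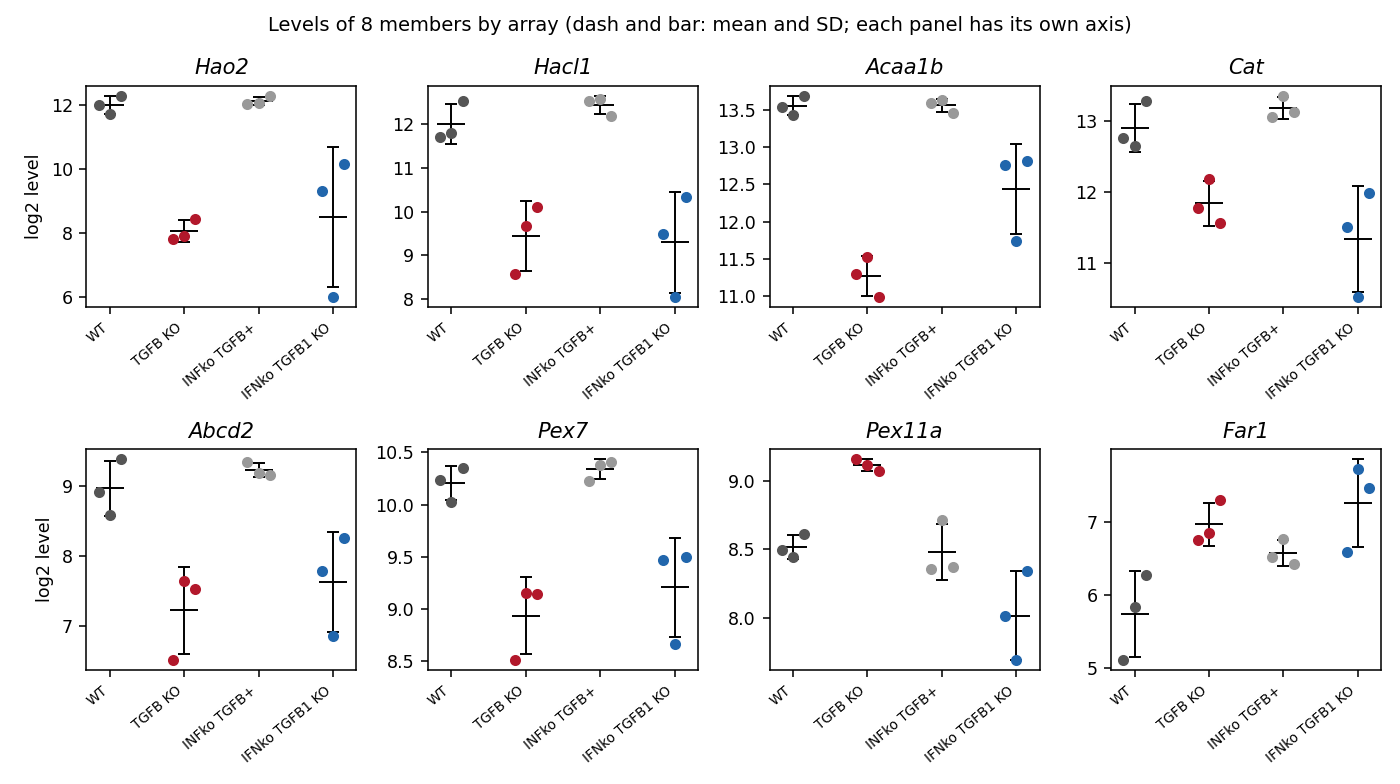
Log2 levels of 8 members (1 panel each, with its own vertical axis) on every array of the 4 groups. Points are mice, dashes are group means and bars are SD over 3 mice. For Hao2, Hacl1, Acaa1b, Cat, Abcd2 and Pex7 the 6 arrays lacking Tgfb1 lie below the other 6, while Pex11a is highest in TGFB KO and lowest on average in IFNko TGFB1 KO.

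Of the 3 genes of ether lipid synthesis 0 fell, where 11.9% of all genes did in TGFB KO and 13.1% in IFNko TGFB1 KO. With 3 genes this count cannot be told apart from those shares. Their median differences were 0.17 and 0.34. Far1, the reductase gene that supplies the fatty alcohol, had levels of 5.10, 5.83 and 6.27 in WT, 6.75, 6.84 and 7.30 in TGFB KO, 6.52, 6.76 and 6.42 in INFko TGFB+ and 6.58, 7.72 and 7.47 in IFNko TGFB1 KO. The TGFB KO arrays were all above WT, and IFNko TGFB1 KO overlapped INFko TGFB+. INFko TGFB+ was above WT on every array too, though that difference of 0.83 ± 0.34 did not pass (adjusted p = 0.91). Far1 rose in TGFB KO (1.23 ± 0.34, adjusted p = 0.0204), a call lost without WT 1 or TGFB KO 3 (adjusted p up to 0.0761), and did not pass in IFNko TGFB1 KO (0.69 ± 0.34, adjusted p = 0.159) except without IFNko TGFB1 KO 1 (1.03 ± 0.31, adjusted p = 0.035) and with the deposited scaling (0.92 ± 0.28, adjusted p = 0.0318). The 4 other Far1 probe sets tested gave positive differences in both comparisons, from 0.03 to 1.12. With limma p-values adjusted over all probe sets tested, 1 of them passed in both. It gave 0.76 (adjusted p = 0.0365) in TGFB KO and 1.12 (adjusted p = 0.00503) in IFNko TGFB1 KO. Another passed in TGFB KO only (1.07, adjusted p = 0.041). Gnpat and Agps, whose enzymes make the ether bond in the organelle, differed by -0.39 ± 0.16 and 0.17 ± 0.21 in TGFB KO and by -0.24 ± 0.16 and 0.34 ± 0.21 in IFNko TGFB1 KO, none of which passed. For Gnpat every TGFB KO array lay below every WT array (limma, unadjusted p = 0.0363, adjusted p = 0.11).

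Of the 12 assembly genes 6 were lower and 1 higher in TGFB KO, and 7 were lower in IFNko TGFB1 KO, with 5 lower in both. Pex7, the receptor of proteins with the N-terminal import signal, led them, with levels of 10.23, 10.03 and 10.35 in WT, 8.51, 9.16 and 9.14 in TGFB KO, 10.23, 10.38 and 10.40 in INFko TGFB+ and 9.47, 8.66 and 9.50 in IFNko TGFB1 KO. All 6 arrays lacking Tgfb1 were at most 9.50 and the other 6 at least 10.03. It changed by -1.27 ± 0.25 (adjusted p = 0.00365) and -1.13 ± 0.25 (adjusted p = 0.00656). Pex5, the receptor of the C-terminal signal, had levels of 8.73, 8.55 and 8.05 in WT, 7.74, 8.11 and 7.78 in TGFB KO, 8.14, 8.13 and 8.27 in INFko TGFB+ and 7.32, 7.47 and 7.54 in IFNko TGFB1 KO. It overlapped between WT and TGFB KO through WT 3 and just missed the threshold (-0.56 ± 0.19, adjusted p = 0.0546, or 0.0133 without WT 3 and 0.0488 without TGFB KO 2), and fell in IFNko TGFB1 KO (-0.73 ± 0.19, adjusted p = 0.016, or 0.0585 without INFko TGFB+ 3).

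Of the docking pair, Pex13 had levels of 10.19, 10.09 and 9.80 in WT, 8.99, 9.19 and 9.32 in TGFB KO, 9.77, 9.85 and 9.92 in INFko TGFB+ and 9.01, 8.93 and 9.50 in IFNko TGFB1 KO. It fell in both comparisons, at -0.86 ± 0.19 (adjusted p = 0.00689) and -0.70 ± 0.19 (adjusted p = 0.0179). The second missed the threshold without INFko TGFB+ 2 or 3 or IFNko TGFB1 KO 1 or 2 (adjusted p up to 0.0636). Its partner Pex14 passed in neither, at -0.38 ± 0.20 (adjusted p = 0.204) and -0.53 ± 0.20 (adjusted p = 0.0789), although its knockout arrays lay below the controls in both, and it passed without IFNko TGFB1 KO 3 (-0.73 ± 0.19, adjusted p = 0.0171). Among the RING proteins of the ubiquitin-ligase complex, Pex10 had levels of 6.55, 6.10 and 6.51 in WT, 5.61, 4.61 and 5.98 in TGFB KO, 6.47, 6.27 and 6.33 in INFko TGFB+ and 5.88, 5.89 and 6.33 in IFNko TGFB1 KO. It fell in TGFB KO (-0.98 ± 0.30, adjusted p = 0.0348), where TGFB KO 2 was the lowest array, and the call was lost without WT 1 or 3 or TGFB KO 1 or 2 (adjusted p up to 0.0978). IFNko TGFB1 KO overlapped INFko TGFB+ (-0.32 ± 0.30, adjusted p = 0.478). Pex2 missed the threshold in both, at -0.57 ± 0.21 (adjusted p = 0.0656) and -0.58 ± 0.21 (adjusted p = 0.0586), the second passing without IFNko TGFB1 KO 3 (-0.79 ± 0.19, adjusted p = 0.0101).

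Pex6, an ATPase that pulls the receptor back out, had levels of 9.36, 9.17 and 9.27 in WT, 8.63, 8.10 and 8.44 in TGFB KO, 9.21, 9.49 and 9.51 in INFko TGFB+ and 8.64, 8.09 and 8.83 in IFNko TGFB1 KO. It changed in both comparisons, by -0.87 ± 0.21 (adjusted p = 0.0123) and -0.88 ± 0.21 (adjusted p = 0.0109). Without TGFB KO 2 the first had an adjusted p of 0.052. The probe set used for Pex6 carries the same suffix as those of Acaa1a, so its reading is uncertain too. Pex26, which anchors that ATPase to the membrane, overlapped in both and differed by -0.51 ± 0.27 and -0.46 ± 0.27, the second passing without IFNko TGFB1 KO 1 (-0.79 ± 0.22, adjusted p = 0.0242). The 3 genes of membrane protein placement followed. Pex19, the cytosolic chaperone, had levels of 9.77, 9.88 and 9.24 in WT, 8.60, 8.68 and 8.77 in TGFB KO, 9.42, 9.33 and 9.58 in INFko TGFB+ and 8.91, 8.44 and 8.95 in IFNko TGFB1 KO. It changed by -0.95 ± 0.20 (adjusted p = 0.006) and -0.68 ± 0.20 (adjusted p = 0.0295), the second lost without INFko TGFB+ 1, 2 or 3 or IFNko TGFB1 KO 2 (adjusted p up to 0.103). Pex16, which recruits PEX3, had levels of 9.48, 9.60 and 9.48 in WT, 8.998, 9.08 and 8.92 in TGFB KO, 9.53, 9.50 and 9.65 in INFko TGFB+ and 8.78, 8.38 and 8.92 in IFNko TGFB1 KO. Its change of -0.52 ± 0.16 (adjusted p = 0.0388) in TGFB KO was lost with any 1 array left out (adjusted p from 0.0665 to 0.107), and that of -0.87 ± 0.16 (adjusted p = 0.00299) in IFNko TGFB1 KO was kept. Pex3, the docking factor for PEX19, had levels of 8.43, 8.39 and 8.74 in WT, 8.15, 8.05 and 7.90 in TGFB KO, 8.52, 8.53 and 8.45 in INFko TGFB+ and 8.06, 7.65 and 8.12 in IFNko TGFB1 KO. It did not pass in TGFB KO (-0.48 ± 0.17, adjusted p = 0.0672) and fell in IFNko TGFB1 KO (-0.56 ± 0.17, adjusted p = 0.0358), a call lost without INFko TGFB+ 1, 2 or 3 or IFNko TGFB1 KO 2 (up to 0.111).

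Pex11a, the division gene, was the only assembly gene above its control level in TGFB KO, and its levels were 8.50, 8.44 and 8.62 in WT, 9.16, 9.12 and 9.07 in TGFB KO, 8.35, 8.72 and 8.37 in INFko TGFB+ and 8.02, 7.69 and 8.34 in IFNko TGFB1 KO. The 3 TGFB KO arrays lay above all 9 others, and the IFNko TGFB1 KO arrays below all of them. It rose in TGFB KO (0.60 ± 0.19, adjusted p = 0.0358), a call lost with any 1 array left out (adjusted p from 0.0541 to 0.0979). The call was kept in a fit of only the WT and TGFB KO arrays. In IFNko TGFB1 KO the difference of -0.47 ± 0.19 did not pass (adjusted p = 0.0877), except without IFNko TGFB1 KO 3 (-0.63 ± 0.18, adjusted p = 0.0266) and with the mean of its probe sets (-0.60 ± 0.19, adjusted p = 0.041). A second Pex11a probe set differed by 0.31 in TGFB KO and by -0.74 in IFNko TGFB1 KO, the same directions, and the first of these did not pass.

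Other probe sets did not all pass with the calls. In all 31 were tested, for 20 of the members, with p-values adjusted over the 27022 probe sets that passed the filter. Of 25 that belong to members called in TGFB KO, 23 had the same sign and 11 passed. Of 22 that belong to members called in IFNko TGFB1 KO, 21 had the same sign and 10 passed. In TGFB KO a second Cat probe set gave -0.72 (adjusted p = 0.218), although it passed in IFNko TGFB1 KO at -1.81. The other Scp2 probe sets gave -1.71, which passed, -0.50 and -0.07. For Pex6 they gave -1.31 and -0.78, which passed, and -0.01 and 0.06. For Pex16 the second probe set gave 0.10 in TGFB KO, and with the mean of its probe sets Pex16 did not pass there (adjusted p = 0.532). In IFNko TGFB1 KO the other Pex19 probe sets gave -0.20 and -0.23, and a dim second Crot probe set gave 0.01. For Agps, which was not called, one gave -1.75 and another 0.56.

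Over the whole set, 34 of the 38 differences were negative in each comparison. The 0 rises in IFNko TGFB1 KO stand beside 29 members with an unadjusted p under 0.05, all lower, and an ordinary t statistic also called 0 higher. The median log2 fold change of the members was -0.87 in both, beside -0.06 and -0.01 over all genes. For 24 members, 6 of assembly and 18 of enzymes and transport, every one of the 6 arrays lacking Tgfb1 was lower than every one of the other 6, a pattern that 11.4% of all genes showed. No member showed the reverse, which 9.69% of genes did. The counts rest on the arrays kept: the falls in TGFB KO ranged from 13 (without TGFB KO 1) to 17 with 1 array left out, with 15 without WT 1, and those in IFNko TGFB1 KO from 19 (without INFko TGFB+ 2) to 29 (without IFNko TGFB1 KO 3), with 21 without IFNko TGFB1 KO 2. With each array centred on its median in place of quantile normalization, 14 members fell in TGFB KO and 27 in IFNko TGFB1 KO. The split of all calls then moved from 49.5% to 38.1% lower in TGFB KO and from 50.8% to 65.4% lower in IFNko TGFB1 KO, and the median of all genes in the latter from -0.01 to -0.15. For the difference of the TGFB effects the split moved from 72.1% to 91.8% lower, and for IFNko TGFB1 KO against TGFB KO from 52.6% to 79.6%.

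**Figure D3:**
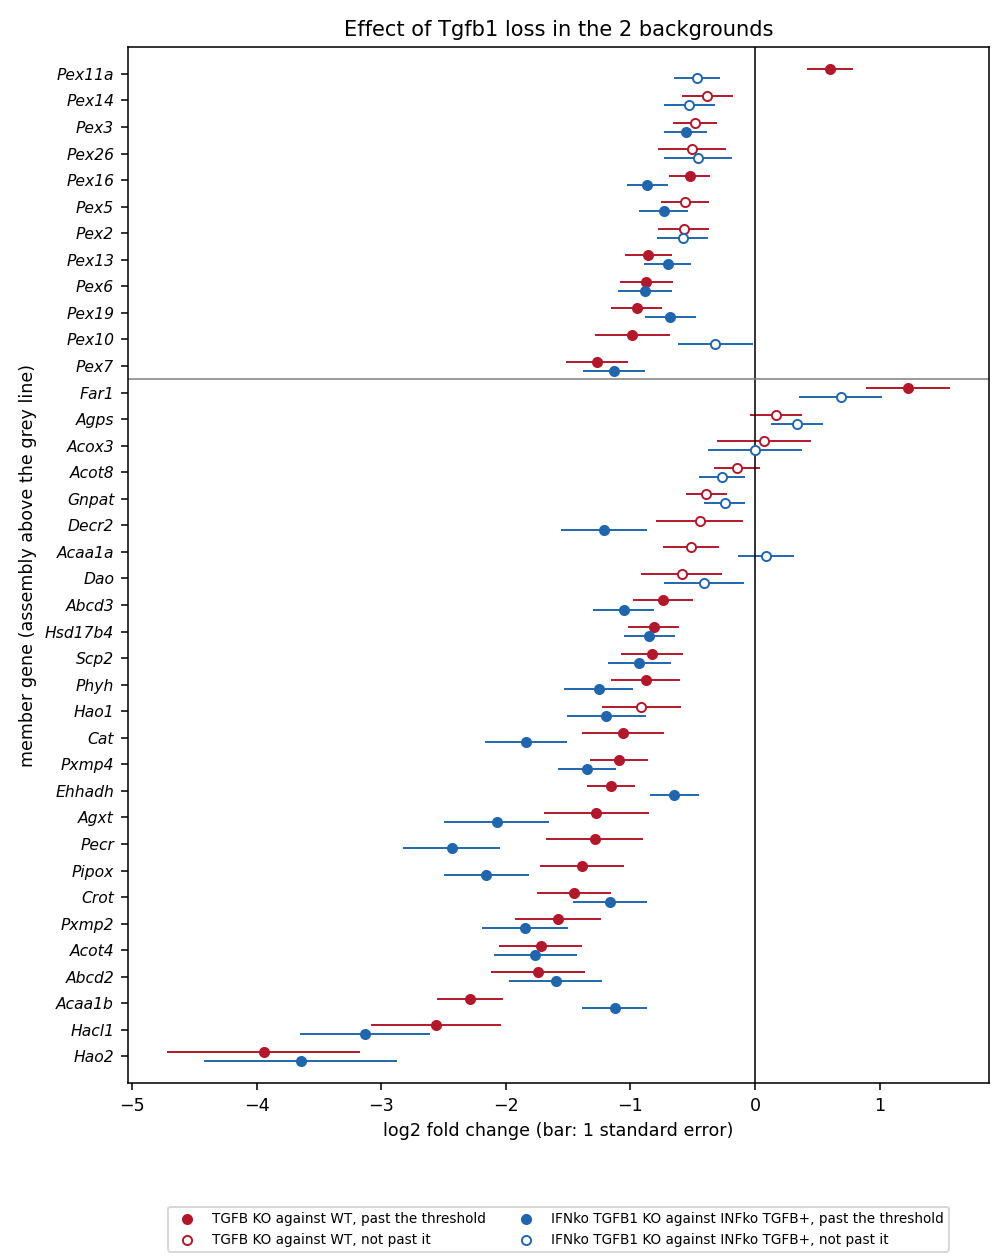
Log2 fold change (horizontal axis, bars 1 standard error) of each member (vertical axis) for TGFB KO against WT in red and IFNko TGFB1 KO against INFko TGFB+ in blue, with filled points past the adjusted p threshold of 0.05. Filled points lie to the left of 0 for 23 and 26 members, and to the right for Pex11a and Far1 in TGFB KO.

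The 2 comparisons share no array, so they can be set side by side. Of the 38 members 22 fell in both, 1 in TGFB KO alone and 4 in IFNko TGFB1 KO alone; 9 passed in neither. Over all genes, 7.54% fell in both. The fold changes correlated across the 38 members with a Pearson r of 0.852 and a Spearman rho of 0.815, which describes genes that share the arrays of each comparison and are not independent. Over all 12760 genes the r was 0.732. It was 0.871 over the 26 enzyme and transport genes, and 0.47 over the 12 assembly genes, whose changes span a narrow range. The median of the members relative to the WT means gave the same order on each array. For the 12 assembly genes it was -0.60, -0.61 and -0.61 in TGFB KO and -0.63, -0.92 and -0.41 in IFNko TGFB1 KO; for the 26 enzyme and transport genes it was -1.11, -0.86 and -1.10, and -0.84, -1.65 and -0.55. On each of these 6 arrays the enzyme and transport median was the lower. In WT and INFko TGFB+ the medians lay between -0.08 and 0.21 for both. A call in 1 comparison and not in the other does not show a difference between them, and the difference of the TGFB effects was tested by itself.

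For that difference, 0 of the 38 members were called lower, where 0.627% of all genes were, and 0 higher, where 0.243% were (limma; 0 by an ordinary t statistic as well), and 2 had an unadjusted p under 0.05, as did 1510 of the 12760 genes. These were Pex11a (-1.07 ± 0.26, adjusted p = 0.102) and Acaa1b (1.16 ± 0.37, adjusted p = 0.229). Without IFNko TGFB1 KO 2 Acaa1b passed (1.51 ± 0.24, adjusted p = 0.0183), and without IFNko TGFB1 KO 3 Pex11a did (-1.23 ± 0.24, adjusted p = 0.0421). At standard errors of 0.23 to 1.10 log2 units for the difference, the data bound it loosely for genes such as Hao2, where it was 0.30 ± 1.10.

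IFNko TGFB1 KO was also set against TGFB KO directly, a comparison that shares its arrays with those above. Of the 38 members 1 was lower and 2 were higher, against 2.82% and 2.54% of all genes. In the same comparison 4 of 7 stellate and 4 of 9 T cell markers were higher and 1 hepatocyte marker, Apoc3, was lower; their part in the members' values was not tested. Pex11a was 2.15-fold lower (-1.10 ± 0.19, adjusted p = 0.00581), a call kept with each array left out. Acaa1b was 2.25-fold higher (1.17 ± 0.26, adjusted p = 0.0269) and Ehhadh 1.67-fold higher (0.74 ± 0.19, adjusted p = 0.0494). The call of Acaa1b was lost without TGFB KO 1 or 3 or IFNko TGFB1 KO 1 or 3 (adjusted p up to 0.0866), and that of Ehhadh with any 1 array left out (from 0.0549 to 0.134). Without IFNko TGFB1 KO 2, the array with the deepest falls, Hao2 (1.68 ± 0.28, adjusted p = 0.00874) and Crot (0.90 ± 0.19, adjusted p = 0.0257) were higher in IFNko TGFB1 KO as well. INFko TGFB+ against WT gave 0 calls among the members and 0% among all 12760 genes (limma; 0 members by an ordinary t statistic). At an unadjusted p under 0.05 there were 2 members, Far1 at 0.83 ± 0.34 and Acaa1a at -0.51 ± 0.23, and 650 genes.

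**Figure D4:**
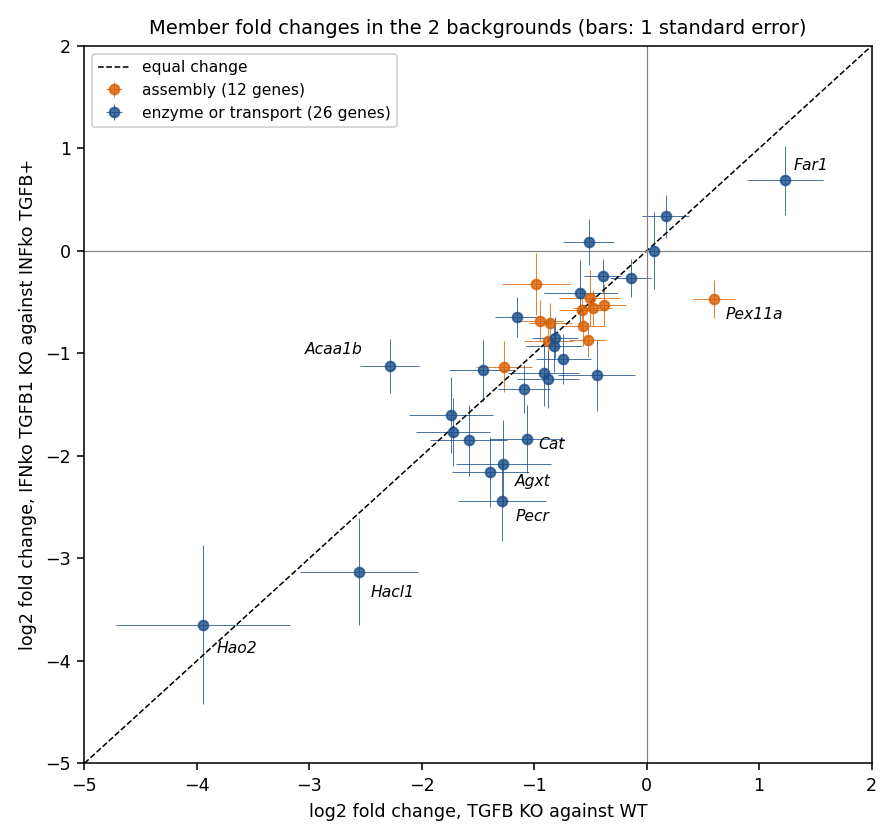
Log2 fold change of each member in TGFB KO against WT (horizontal axis) and in IFNko TGFB1 KO against INFko TGFB+ (vertical axis), with bars of 1 standard error, orange for the 12 assembly genes and blue for the 26 enzyme and transport genes. Most points lie below 0 on both axes near the dashed line of equal change; Acaa1b lies above it and Pex11a below.

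A list of 54 other peroxisomal genes was read the same way, and 40 were tested. In TGFB KO 19 fell and 2 rose (median -0.80), or 47.5% and 5%, against 11.9% and 12.2% of all genes. In IFNko TGFB1 KO 21 fell and 0 rose (median -0.87), or 52.5% and 0%, against 13.1% and 12.7%. Acot3, a further thioesterase gene, changed by -2.43 ± 0.34 and -2.75 ± 0.34, and Nudt7, a hydrolase of coenzyme A, by -1.85 ± 0.35 and -2.96 ± 0.35. Ddo, the D-aspartate oxidase gene, changed by -1.15 ± 0.25 and -2.41 ± 0.25, and was lower in IFNko TGFB1 KO than in TGFB KO (-1.05 ± 0.25, adjusted p = 0.0339). Zadh2 changed by -1.55 ± 0.22 and -0.96 ± 0.22. Tysnd1, the protease gene for the trimming of imported enzymes, changed by -0.79 ± 0.16 and -1.10 ± 0.16. The 2 rises were those of Xdh, the xanthine dehydrogenase gene, at 2.83 ± 0.24 (adjusted p = 1.49e-05), and Baat, which conjugates bile acids, at 2.50 ± 0.37 (adjusted p = 0.000599). Neither passed in IFNko TGFB1 KO (0.58 ± 0.24 and -0.64 ± 0.37), and for both the difference of effects did (-2.25 ± 0.35, adjusted p = 0.0112 for Xdh and -3.14 ± 0.52, adjusted p = 0.017 for Baat).

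Ppara, the gene of the receptor PPAR-alpha, fell in both comparisons, and its part in the falls of the members was not tested. Its log2 levels were 10.36, 10.47 and 10.76 in WT, 8.79, 8.99 and 8.72 in TGFB KO, 10.84, 11.08 and 10.54 in INFko TGFB+ and 8.90, 7.84 and 9.36 in IFNko TGFB1 KO. The groups with and without Tgfb1 did not overlap, and the changes were -1.69 ± 0.32 (adjusted p = 0.00297) and -2.12 ± 0.32 (adjusted p = 0.000864). Ppara alone of 9 tested regulator genes passed in TGFB KO, or 11.1%, a share close to the 11.9% of all genes that fell. In IFNko TGFB1 KO 2 of the 9 fell, or 22.2%, where 13.1% of all genes did. In IFNko TGFB1 KO Hnf4a, a hepatocyte transcription factor gene, fell too (-0.75 ± 0.25, adjusted p = 0.0476); the partner gene Rxra differed by -0.15 ± 0.22 and -0.08 ± 0.22 and did not pass. Of 23 tested PPAR-alpha targets outside the organelle, Ppara included, 11 fell and 4 rose in TGFB KO (median -0.53). These were 47.8% and 17.4%, against 11.9% and 12.2% of all genes. In IFNko TGFB1 KO 10 fell and 5 rose (median -0.51), or 43.5% and 21.7%, against 13.1% and 12.7% of all genes. Cyp4a14, a fatty acid hydroxylase gene, differed by 0.09 ± 0.38, which did not pass, and fell in IFNko TGFB1 KO (-1.59 ± 0.38, adjusted p = 0.0104). Aldh3a2, a fatty aldehyde dehydrogenase gene, changed by -1.54 ± 0.19 and -0.78 ± 0.19, and Creb3l3, a liver transcription factor gene, by -0.92 ± 0.20 and -0.94 ± 0.20. In the other direction, Acot1, a cytosolic thioesterase gene, changed by 1.98 ± 0.42 and 2.11 ± 0.42, Pdk4, the kinase gene that spares glucose, by 1.25 ± 0.29 and 1.59 ± 0.29, Angptl4 by 1.06 ± 0.23 and 1.43 ± 0.23, and the fatty acid carrier gene Cd36 by 0.92 ± 0.22 and 1.36 ± 0.22.

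Markers of several other cell types moved with these groups. Whole liver RNA cannot tell fewer hepatocytes from less RNA per hepatocyte. All 11 macrophage markers rose in both comparisons, with a mean log2 level per array of 9.11 to 9.32 in WT, 11.86 to 11.92 in TGFB KO, 8.95 to 8.98 in INFko TGFB+ and 11.40 to 11.96 in IFNko TGFB1 KO. All 9 tested T cell markers rose in TGFB KO and 8 in IFNko TGFB1 KO, with mean levels of 5.23 to 5.26, 6.81 to 7.03, 5.03 to 5.30 and 7.82 to 8.55 in that order of groups. Of 7 stellate cell markers 2 fell in TGFB KO and 2 rose in IFNko TGFB1 KO, with mean levels of 9.73 to 9.91 in WT, 9.32 to 9.59 in TGFB KO, 9.65 to 9.67 in INFko TGFB+ and 10.18 to 10.88 in IFNko TGFB1 KO. Pancreas markers had a mean level of 9.30 in INFko TGFB+ 2 and at most 7.14 on the other arrays. Of 8 tested neutrophil markers 5 rose in each comparison. Fewer calls came from other lists. In TGFB KO 0 of 5 B and plasma cell, 1 of 6 endothelial and 0 of 4 cholangiocyte markers rose. In IFNko TGFB1 KO 1, 2 and 0 did, in that order, and 0 fell in either comparison. Over all genes 11.9% fell and 12.2% rose in TGFB KO, and 13.1% and 12.7% in IFNko TGFB1 KO. None of these markers was listed at a signal of 0. Of 10 tested hepatocyte markers 0 rose or fell in TGFB KO and 1, Apoc3, fell in IFNko TGFB1 KO, with mean levels of 13.93 to 13.98, 13.95 to 14.13, 13.93 to 13.96 and 13.62 to 13.99. The summed deposited signal of the same markers was 204384 to 213918 in WT and 166107 to 199031 in TGFB KO, without overlap, and 176362 to 213641 in INFko TGFB+ and 131965 to 189551 in IFNko TGFB1 KO, with overlap. The 2 measures differ in TGFB KO, where the sum was lower and the mean log2 level was not. These markers lie near the top of the log2 scale. Quantile normalization gives the highest ranks the same values on every array, which limits how far such markers can differ. The few calls among them therefore do not show that hepatocyte RNA was unchanged. The part of the other cells in the falls of the members was not tested.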

How the data were processed

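Total liver RNA, extracted with Trizol per the labels, was measured on 12 oligonucleotide arrays of 45101 probe sets, 1 mouse each. The authors deposited 1 signal intensity per probe set on a linear scale, already scaled: from the values, the mean without the lowest and highest 2 percent was 150.001 on every array. The signal algorithm is not given in the sources used here. Groups were taken from the labels; replicate 1 of INFko TGFB+ carries no number there and received the number left over.

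After a pseudocount of 16, log2 and quantile normalization, 64 control probe sets and probe sets with a mean under the 40th percentile (log2 5.25) were dropped. The single-symbol probe set with the highest mean stood for each gene, which left 12760 genes. Of the probe sets, 34958 carry 1 gene symbol, 932 several and 9211 none listed, and 34754 symbols were updated by gene identifier through RefSeq's GRCm38.p6 table. The pseudocount makes the fold changes of dim genes too small.

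Groups were compared with limma 3.58.1 in R 4.3.3, fitting 1 mean for each group on the 12 arrays together (8 residual and 3.44 prior degrees of freedom), 5 contrasts, two-sided p-values and Benjamini-Hochberg adjustment with a threshold of 0.05. The series gives 3 mice per group, and p-values measure the spread between mice within groups, pooled over the 4 groups. Same-numbered samples were not treated as pairs. Of 18 such pairs, the correlations of deviations ran from -0.08 to 0.34, the highest for WT 3 with TGFB KO 3, and 4 were over 0.1. Differently numbered samples were not compared in this way, so these values do not show whether the numbers pair the samples. The procedure was tested on simulated data, and 24 alternative settings were run.

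The members and lists were chosen with earlier results of these data known. Named genes are all members; every array is listed for those past the threshold in either TGFB comparison or their difference; of the other peroxisomal genes, regulators and PPAR-alpha targets, up to 4 with the smallest p per comparison are named, and Ppara always.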

Additional observations from a re-analysis of the deposited data

Results flagged for a closer look

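Among the genes named outside the 38 members, 2 had TGFB effects that differed between the TGFB KO and IFNko TGFB1 KO comparisons by a test of the difference itself (limma, Benjamini-Hochberg adjustment over 12760 genes). Baat differed by -3.14 ± 0.52 on the log2 scale (adjusted p = 0.017), and Xdh by -2.25 ± 0.35 (adjusted p = 0.0112). Both rose in TGFB KO and did not pass in IFNko TGFB1 KO. Baat had log2 levels of 8.66, 9.09 and 8.82 in TGFB KO. In the other groups it was dim, between 5.56 and 7.33, with the filter at 5.25. Of the marker lists, 3 of 7 stellate and 1 of 9 T cell markers passed this test as well, all with a higher effect in IFNko TGFB1 KO.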

How the results depend on the processing

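Of 54 calls of single members, 28 kept their direction and stayed past the threshold in every setting run, and of 971 such settings 156 lost the call and 0 reversed it. Of 380 settings of results over several members, 44 moved. Median centring gave 14 falls and 1 rise in TGFB KO; in IFNko TGFB1 KO medians of -0.85 (assembly) and -1.51 (enzymes and transport); for the difference of the TGFB effects medians of -0.37 and -0.48; and in IFNko TGFB1 KO against TGFB KO 0 rises and an assembly median of -0.14. Rises in TGFB KO numbered 1 without the filter, with the mean of all probe sets, and with the replicate block. Against TGFB KO, rises in IFNko TGFB1 KO numbered 1 with the deposited scaling, a pseudocount of 1, no filter, the replicate block, sex as a term and array weights, and 0 with an ordinary t statistic, an alternative added after seeing the data. With only the arrays compared there were 0 rises and 0 falls. The same setting gave 21 falls and 2 rises in TGFB KO against WT. In IFNko TGFB1 KO against INFko TGFB+ it gave 21 falls and 0 rises. With the deposited scaling 1 member rose in IFNko TGFB1 KO against INFko TGFB+. Pex2, Pex3, Pex5 and Hao1 passed in TGFB KO under some settings, and Pex2 in IFNko TGFB1 KO. The cause was not tested.

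With 1 array left out, falls in TGFB KO ran from 13 to 17 and rises from 0 to 1. In IFNko TGFB1 KO against INFko TGFB+ falls ran from 19 to 29, rises from 0 to 1, the assembly median from -0.78 to -0.49 and the enzyme and transport median from -1.47 to -0.80. For the difference of the TGFB effects falls and rises each ran from 0 to 1, the assembly median from -0.16 to 0.19 and the enzyme and transport median from -0.40 to 0.07. Against TGFB KO, rises ran from 0 to 3, and the medians from -0.11 to 0.17 and from -0.37 to 0.16. The replicate numbers were not treated as pairs, and whether they pair the samples is not known. With them as a block, 20 members fell in TGFB KO and 27 in IFNko TGFB1 KO. The number of mice, 3 a group, limits the precision, and members near the filter (Dao, Acox3 and Pex10) are read least well.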
